A study of Mus musculus with 6 samples.

Results

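The 9 genes described here encode complement components and regulators: C3, C4b, C2, Cfb, Serping1, C1ra, C1s1, Cd55 and Cd59a. They were chosen by symbol as complement genes made by stromal and mesothelial cells, and all 9 were among the 31055 genes of the deposited UMI count matrix. The libraries were made from EGFP-positive non-myocytes sorted from digested hearts, and the C57BL/6 mice were 3 to 6 months old. The Dsp_het group held 3 libraries of the genotype Wt1CreERT2:Rosa26mTmG:DspW/F, in which 1 Dsp allele could be deleted by Cre. The control group held 3 libraries of the genotype Wt1CreERT2:Rosa26mTmG, so both groups carried the inducible Cre and the reporter, and the groups differed in the Dsp allele. Wt1, which drives the Cre, is a transcription factor of the epicardium, and EGFP marks the cells in which Cre acted and their descendants. Dsp encodes desmoplakin, a desmosome protein, and its haploinsufficiency serves in this series as a mouse model of arrhythmogenic cardiomyopathy.

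Complement is a cascade of proteases and binding proteins of the innate immune system. In the classical pathway C1q recruits the proteases C1r and C1s, which cut C4 and C2 to form an enzyme that cuts C3, and in the alternative pathway factor B, the product of Cfb, takes the place of C2. C1 inhibitor, the product of Serping1, blocks C1r and C1s, and the membrane proteins CD55 and CD59 protect host cells by taking apart the C3-cutting enzymes and by blocking the membrane attack complex. The liver makes most plasma complement, and stromal and mesothelial cells are known as local sources.

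After filtering and after keeping each barcode in 1 library, 12643 cells remained, with 8773959 to 13375873 UMIs per Dsp_het library and 6878496 to 15252012 UMIs per control library. More than 1 library held 1689 of the 13183 distinct barcodes, and all 6 libraries held 530 of them; 3652 such repeat occurrences were left out. Although the gate was set for epicardial-derived cells, endothelial-like cells made up 67.3% to 80.5% of the cells of Dsp_het libraries and 70.2% to 85.0% of those of control libraries, from 9411 cells in all. Fibroblast-like cells numbered 1211, epicardial-like cells 601, pericyte-like cells 224 and macrophage-like cells 204. GFP ranged from 2631 to 3023 CPM (UMI counts scaled to the same total in each sum) in Dsp_het libraries and from 2602 to 2795 CPM in control libraries. Xist, a female-specific transcript, was at 645 CPM in Dsp_het library 2 and at 504 CPM in control library 3, and had 0 or 1 UMI in each of the other 4. Dsp itself, at low counts, averaged 8.01 ± 1.28 CPM in epicardial-like cells of Dsp_het libraries and 16.7 ± 4.57 CPM in those of control libraries (SD, n = 3 each; two-sided exact permutation p = 0.1, the smallest that 3 against 3 libraries allow). The counts behind these Dsp levels were 14, 6 and 15 UMIs in Dsp_het libraries and 4, 7 and 18 UMIs in control libraries.

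Of the 9 genes, 6 had their highest mean level in epicardial-like cells, 2 in fibroblast-like cells and 1 in endothelial-like cells. Levels are CPM of the UMIs summed over the cells of a class in a library, as mean ± SD over libraries. They are 3′ tag counts, so they were not divided by gene length, and levels are compared between cells and not between genes. Clusters were built without the complement genes, and the levels are a description with no test, since the genes had been proposed for this pattern.

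C3, the protein on which all complement pathways converge, was an epicardial and fibroblast transcript in these hearts. In epicardial-like cells it was at 5461, 6275 and 6509 CPM in Dsp_het libraries and at 10164, 8858 and 3952 CPM in control libraries, with a mean of 6870 ± 2271 CPM (SD, n = 6). In fibroblast-like cells it was at 1688, 1453 and 1328 CPM in Dsp_het libraries and at 1322, 1603 and 837 CPM in control libraries, with a mean of 1372 ± 300 CPM (SD, n = 6). Epicardial-like cells lay above fibroblast-like cells in 6 of 6 libraries, by 5.01-fold in the means, and the ranges did not overlap. The next classes were macrophage-like cells at 17.1 ± 9.02 CPM (n = 4), endothelial-like cells at 11.1 ± 5.40 CPM (n = 6) and pericyte-like cells at 7.69 ± 7.54 CPM (n = 4), and these 3 overlapped. Pericyte-like and macrophage-like levels rest on the 4 libraries with at least 20 such cells, Dsp_het library 3 and the 3 control libraries.

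C2, the protease that joins C4b to form the C3-cutting enzyme of the classical pathway, was mostly an epicardial transcript. It was at 410, 512 and 548 CPM in epicardial-like cells of Dsp_het libraries and at 564, 537 and 488 CPM in those of control libraries, with a mean of 510 ± 55.7 CPM (SD, n = 6). The 6 values lay close together, and the mean was 43.4-fold that of fibroblast-like cells at 11.8 ± 6.65 CPM. Macrophage-like cells were at 11.2 ± 2.20 CPM, which overlapped with fibroblast-like cells. Cfb, which lies next to C2 on chromosome 17 with 85 bases between the annotated genes (GRCm38, GENCODE M21), was also highest in epicardial-like cells, at lower counts. Cfb averaged 105 ± 25.6 CPM in epicardial-like cells, 8.99-fold above macrophage-like cells at 11.7 ± 9.12 CPM, and the other classes were at 4.04 to 6.35 CPM and overlapped. Both genes are read from the minus strand, with C2 at chr17:34862604-34898265 and Cfb at chr17:34856374-34862518, and whether the counting kept reads of such neighbours apart is not given in the sources used here.

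C4b, the mouse gene for complement C4, at chr17:34728380-34743882, had macrophage-like cells clearly in second place. Its mean was 646 ± 242 CPM in epicardial-like cells, 247 ± 110 CPM in macrophage-like cells and 52.3 ± 30.3 CPM in fibroblast-like cells, and the ranges of these neighbours did not overlap. In epicardial-like cells it was at 430, 458 and 1020 CPM in Dsp_het libraries and at 709, 811 and 447 CPM in control libraries. Dsp_het library 3 was the highest of the 6 and the other Dsp_het libraries were among the lowest. C4a, its near copy, had no row in the matrix, and whether its reads were counted under C4b is not given in the sources used here.

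C1ra and C1s1 encode the proteases of the C1 complex, and Serping1 encodes their inhibitor. All 3 were shared between epicardial-like and fibroblast-like cells. Serping1 averaged 1777 ± 180 CPM in fibroblast-like cells and 1570 ± 269 CPM in epicardial-like cells, with fibroblast-like cells higher in 4 of 6 libraries and overlapping ranges. C1ra averaged 327 ± 64.5 CPM in epicardial-like and 297 ± 49.9 CPM in fibroblast-like cells, and C1s1 297 ± 56.2 CPM and 279 ± 46.9 CPM in the same order, again with overlap. Pericyte-like cells came next for each of the 3, at 148 ± 27.1 CPM for Serping1, 27.5 ± 6.40 CPM for C1ra and 114 ± 20.2 CPM for C1s1 (SD, n = 4). C1s1 was thus 2.44-fold lower in pericyte-like than in fibroblast-like cells, against 10.8-fold for C1ra, whose gene lies 6901 bases away on chromosome 6.

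The membrane regulators had other orders. Cd55, also called decay-accelerating factor, was highest in fibroblast-like cells at 249 ± 38.2 CPM, above epicardial-like cells at 85.7 ± 20.8 CPM and endothelial-like cells at 34.3 ± 10.1 CPM, with no overlap between these neighbours. Cd59a, which blocks the membrane attack complex, had its highest level, 111 ± 16.2 CPM, in endothelial-like cells, above pericyte-like cells at 66.9 ± 12.9 CPM and epicardial-like cells at 29.1 ± 6.17 CPM, again without overlap. Fibroblast-like cells, at 21.3 ± 8.52 CPM, overlapped with epicardial-like cells for Cd59a. Across the 28 sums of a class in a library, the log2(CPM + 1) of Cd59a had a Pearson r of -0.60 with C4b and -0.21 with C3, while Serping1 had r = 0.98 with C1s1. These sums share libraries and classes, so the correlations are descriptions.

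**Figure D1:**
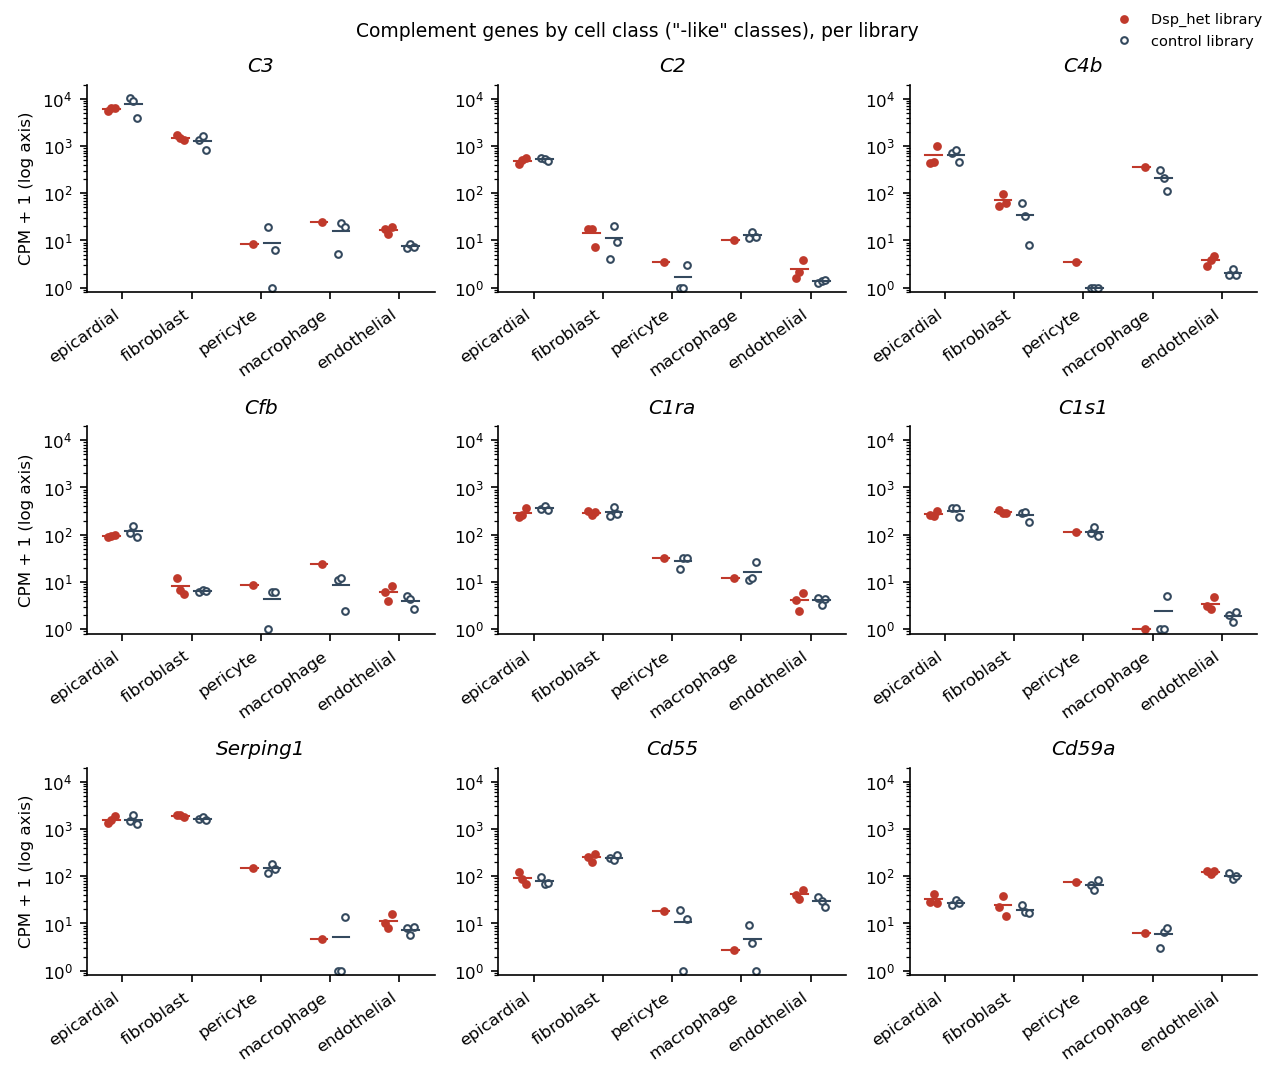
Level of each complement gene by cell class, as CPM + 1 on a log axis, with 1 point per library (filled, Dsp_het; open, control) and a line at the group mean. C3, C2, C4b and Cfb stand highest in epicardial-like cells, C1ra, C1s1 and Serping1 overlap between epicardial-like and fibroblast-like cells, and Cd59a is highest in endothelial-like cells.

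The 250 bases before the RefSeq start of 4 genes are shown because they stand for the 3 patterns of level: C3 for epicardial-like cells, the neighbours C1ra and C1s1 for both stromal classes, and Cd59a for endothelial-like cells. They are RefSeq sequences (GRCm38.p6) written 5′ to 3′ on the gene's strand, at chr17:57228137-57228386 (minus strand) for C3, chr6:124512371-124512620 (plus strand) for C1ra, chr6:124542360-124542609 (minus strand) for C1s1 and chr2:104095551-104095800 (plus strand) for Cd59a. The RefSeq start of C1ra lies inside the gene as GENCODE M21 gives it, so most of its window is within that gene, while the other 3 windows end at the start of theirs. Capitals mark matches to a motif on either strand.
C3: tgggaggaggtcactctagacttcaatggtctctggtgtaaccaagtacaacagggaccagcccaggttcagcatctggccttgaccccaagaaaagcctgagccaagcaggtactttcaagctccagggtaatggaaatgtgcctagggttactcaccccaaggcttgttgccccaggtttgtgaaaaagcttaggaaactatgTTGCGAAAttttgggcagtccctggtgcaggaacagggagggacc
C1ra: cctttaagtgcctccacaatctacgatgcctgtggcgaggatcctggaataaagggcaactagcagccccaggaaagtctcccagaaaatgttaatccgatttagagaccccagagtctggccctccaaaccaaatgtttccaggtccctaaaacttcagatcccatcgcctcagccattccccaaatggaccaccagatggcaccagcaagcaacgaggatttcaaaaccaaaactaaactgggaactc
C1s1: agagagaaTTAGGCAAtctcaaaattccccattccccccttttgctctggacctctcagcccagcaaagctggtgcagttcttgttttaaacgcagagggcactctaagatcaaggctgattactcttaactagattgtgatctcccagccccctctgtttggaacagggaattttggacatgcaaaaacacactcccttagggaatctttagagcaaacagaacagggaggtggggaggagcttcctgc
Cd59a: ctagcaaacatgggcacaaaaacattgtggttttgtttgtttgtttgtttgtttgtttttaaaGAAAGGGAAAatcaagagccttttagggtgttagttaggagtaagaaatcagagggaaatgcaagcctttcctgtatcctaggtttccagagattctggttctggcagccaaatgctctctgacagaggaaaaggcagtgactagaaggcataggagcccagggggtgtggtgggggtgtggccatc
The motifs searched were TATAAA, a core promoter element, TTGCNNAA, a form bound by C/EBP factors, TTCNNNGAA, the interferon gamma-activated site, and the interferon-stimulated response element and NF-kappaB motifs, each on both strands and with overlaps allowed. TTGCNNAA was found once in C3, beginning 45 bases before the start, and once in C1s1, beginning 242 bases before the start, and it is held by 9.56% of the 32851 promoters of the table over the same 250 bases. The interferon-stimulated response element was found once in Cd59a, beginning 187 bases before the start, and is held by 2.98% of promoters. TATAAA (12.4% of promoters), TTCNNNGAA (7.02%) and the NF-kappaB motif (0.356%) were in none of the 4 windows, and Cd55, the fifth gene with a promoter in the table, held no match.

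The origin of the transcripts was more concentrated than the cells. Epicardial-like cells gave 9.53% of all UMIs, but 93.8% of the UMIs of C2, 76.9% of those of C4b, 71.2% of those of C3 and 69.0% of those of Cfb. Fibroblast-like cells gave 15.4% of all UMIs and 64.4% of the UMIs of Serping1, 59.2% of those of C1s1, 58.4% of those of C1ra and 56.3% of those of Cd55. Endothelial-like cells gave 62.2% of all UMIs, 84.5% of those of Cd59a and 0.801% of those of C3. The widest 95% Clopper-Pearson interval of these shares was that of Cfb in epicardial-like cells, from 65.7% to 72.1%, and covers counting error only. Dsp_het library 1, with 33.8% of its UMIs from fibroblast-like cells, had 41.8% of its C3 from them, against 12.2% to 27.1% in the other 5 libraries.

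**Figure D2:**
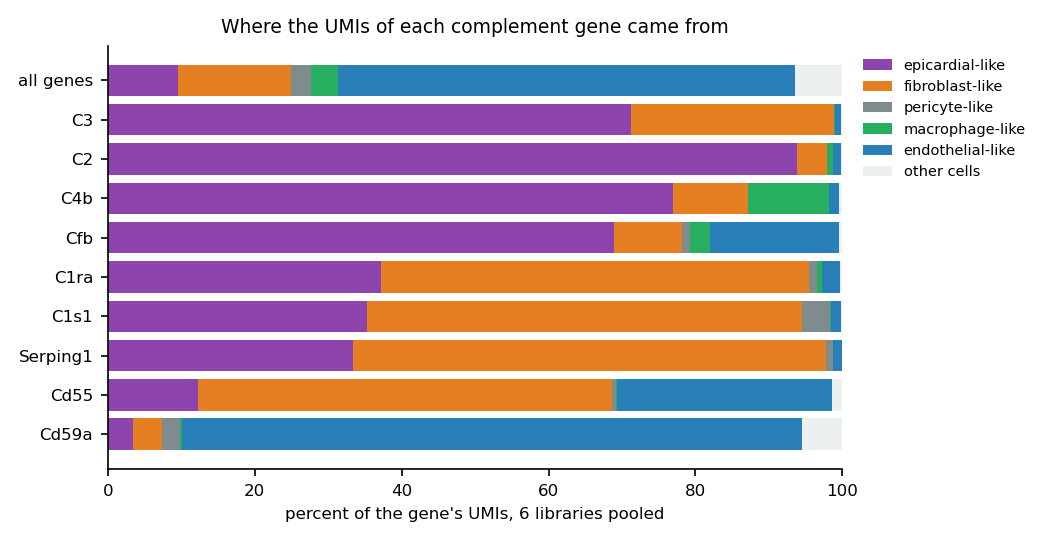
Share of the UMIs of each complement gene, and of all genes, by cell class over the 6 libraries pooled (horizontal axis, percent). Epicardial-like cells gave 9.53% of all UMIs and 71.2% of those of C3, and endothelial-like cells gave 84.5% of those of Cd59a.

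Within epicardial-like cells, C3 was carried by nearly every cell. After thinning each cell to 1000 UMIs, which left out 8 Dsp_het and 5 control cells of this class, C3 was found in 545 of 588 cells (92.7%, 95% Clopper-Pearson interval from 90.3% to 94.7%). The same thinning found C3 in 719 of 1194 fibroblast-like cells (60.2%), in 106 of 9011 endothelial-like cells (1.18%), in 3 macrophage-like and in 1 pericyte-like cell. Unthinned median depths were 9637 UMIs in the epicardial-like, 7630.5 in the fibroblast-like and 3839 in the endothelial-like cells compared. The C3 share in endothelial-like cells is close to that in macrophage-like and pericyte-like cells, and was not read as expression. The median epicardial-like cell held UMIs of 3 of the 9 genes at this depth, the median fibroblast-like cell of 2 and the median endothelial-like cell of 0. Of the epicardial-like cells with C3, 37.8% also had C2, against 1.53% of the fibroblast-like cells with C3.

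Among epicardial-like cells with at least 5000 UMIs, the 90th percentile of C3 was 10651, 10162 and 11829 CPM in Dsp_het libraries and 27080, 20308 and 9682 CPM in control libraries. The medians per cell were 4323, 5812 and 6517 CPM in Dsp_het libraries and 7244, 6774 and 3274 CPM in control libraries. Control libraries 1 and 2 thus held cells of very high C3, from 29 and 30 such cells, and control library 3 held the lowest. C4b was less evenly spread. Its median per cell was 192, 196 and 887 CPM in Dsp_het libraries and 387, 414 and 182 CPM in control libraries, and it was at 0 in 9.09% of these cells in Dsp_het library 3 and in 27.6% to 35.3% in the other 5 libraries.

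Fibroblast-like cells were less uniform. Dsp_het library 1 held 60 of the 70 cells of a cluster whose leading genes were Ccl11 and Igfbp3, so it was set against the main fibroblast cluster, led by Gsn and Ptn, within that library, after its values had been seen and without a test. These 60 cells had 2310 CPM of C3, 290 CPM of C4b, 709 CPM of C1s1 and 69.9 CPM of Cfb. The 550 cells of the main cluster had 1617 CPM of C3, 25.6 CPM of C4b, 284 CPM of C1s1 and 4.23 CPM of Cfb. The exact Poisson intervals of these 4 pairs did not overlap, and they cover counting error in 1 library. Cd55 and Serping1 had the other order, at 131 and 1620 CPM in the smaller cluster and at 273 and 1978 CPM in the main cluster. In a split of all fibroblast-like cells, the 1105 cells with a UMI of Pi16 or Cd248, markers of adventitial fibroblasts, had 258 ± 40.8 CPM of Cd55, and the 106 cells without one had 121 ± 37.3 CPM (SD, n = 6). Cd55 was higher in the first set in 6 of 6 libraries. The other 8 genes were higher in the first set in 2 to 5 of 6 libraries, and the second set had 4 to 57 cells per library and a lower median depth, 6150 against 7670 UMIs.

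Within endothelial-like cells, 10 clusters were compared, each named by 2 of its leading genes. Cd59a was highest in the cluster with Cytl1 and Npr3, genes of the endocardium, among its leading genes. The leading genes of that cluster also held Vwf, Cpe and Ctsh, which were on the list of venous markers. Cd59a was next highest in the cluster with Vwf and Nr2f2, genes of veins, among its leading genes. Those leading genes began with Ccl21a, which was on the list of lymphatic endothelial markers, and Serpina1b. In the Cytl1 and Npr3 cluster Cd59a was at 304 and 241 CPM in Dsp_het libraries 1 and 3 and at 288 and 273 CPM in control libraries 1 and 3, the 4 libraries with at least 20 such cells. In the Vwf and Nr2f2 cluster it was at 212, 224 and 227 CPM in Dsp_het libraries and at 218, 149 and 211 CPM in control libraries. The means, 277 ± 26.7 CPM (n = 4) and 207 ± 28.9 CPM (n = 6), stood apart from each other and from the Timp4 and Cyp26b1 cluster at 118 ± 15.5 CPM. The other 7 clusters ran from 61.2 to 95.2 CPM, and neighbours in that order overlapped.

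Cd55 was highest in the Vwf and Nr2f2 cluster at 97.7 ± 18.6 CPM (n = 6), followed by the Cytl1 and Npr3 cluster at 51.1 ± 13.2 CPM (n = 4), and these did not overlap. It was lowest in the Rbp7 and Cxcl12 cluster, with capillary genes, at 7.38 ± 4.60 CPM and in the Hey1 and Gja4 cluster, with arterial genes, at 9.40 ± 3.61 CPM. Serping1 and C1ra, both low in endothelial-like cells as a whole, were at 66.6 ± 26.4 CPM and 29.7 ± 9.04 CPM in the Cytl1 and Npr3 cluster. The next cluster had 15.4 ± 6.68 CPM of Serping1 and 4.71 ± 3.31 CPM of C1ra, with no overlap. The 287 barcodes of the Cytl1 and Npr3 cluster had a median of 998 UMIs, the lowest of the 10 clusters. Of these 287, 152 were repeat occurrences and are not in the values above. With them included, Cd59a was at 268 ± 18.6 CPM and Serping1 at 72.7 ± 24.9 CPM (n = 5). Cfb was at 13.6 ± 5.36 CPM in the Vwf and Nr2f2 cluster and at most 3.78 CPM elsewhere, from 81 UMIs. C3 ran from 5.00 to 15.9 CPM, and every pair of neighbours overlapped.

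**Figure D3:**
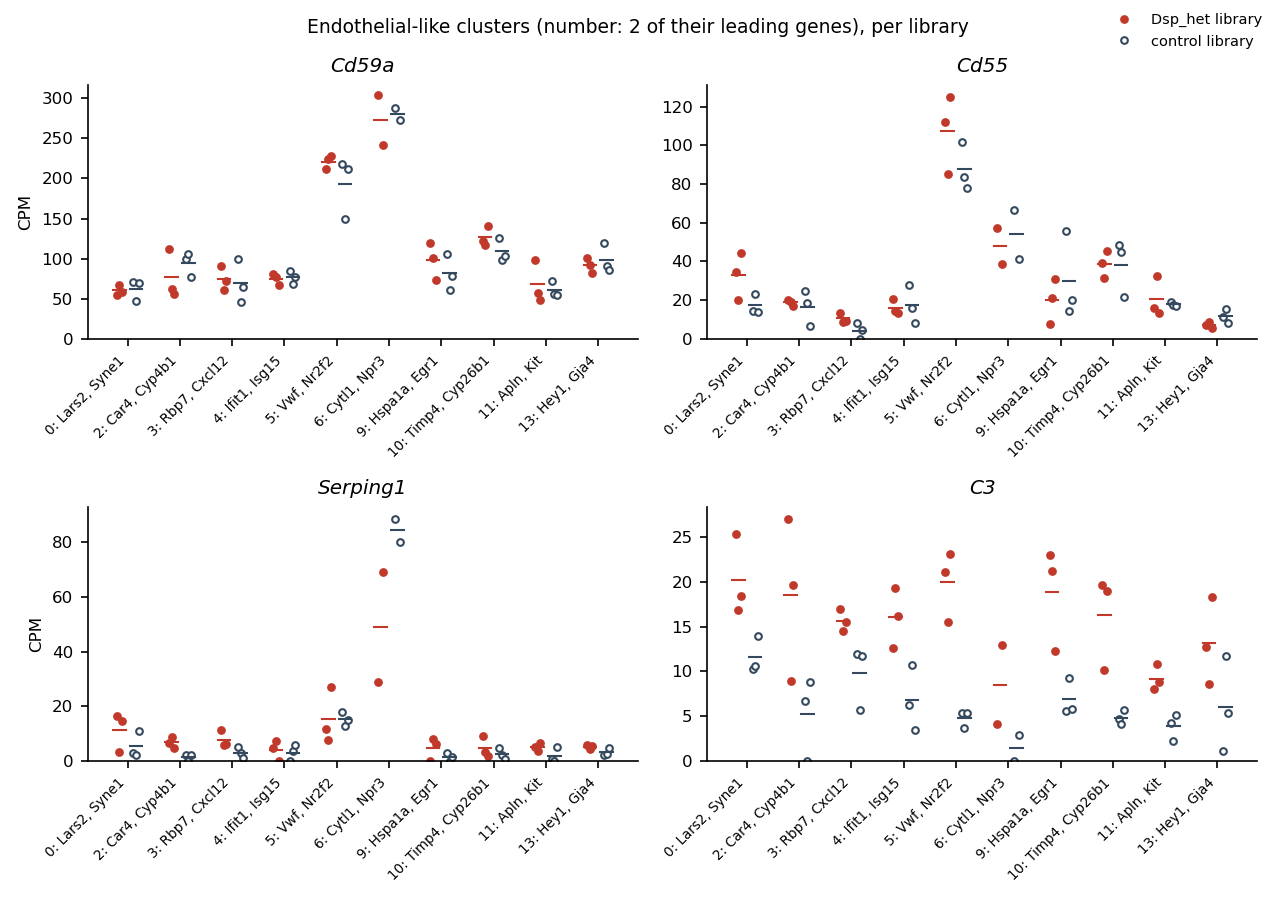
Level of Cd59a, Cd55, Serping1 and C3 (CPM, linear axes) in 10 endothelial-like clusters, each labelled by its number and 2 of its leading genes, with 1 point per library (filled, Dsp_het; open, control) and a line at the group mean. Cd59a is highest in clusters 6 and 5, with means of 277 and 207 CPM, and Cd55 in cluster 5.

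The genes most like each of the 9 were ranked by the Pearson r of log2(CPM + 1) over the 28 class by library sums, among 8728 genes. Ptprd (r = 0.98) was nearest to C3, Creg1 (0.95) to C4b, Dbi (0.95) to C2 and Cpox (0.90) to Cfb. Col3a1 (0.99) and Col1a2 (0.99), which encode fibrillar collagen chains, were nearest to Serping1, Vasn (0.99) to C1s1 and Bmpr1a (0.97) to C1ra. Copz2 (0.91) was nearest to Cd55, and Dab2ip (0.96) and Tjp1 (0.95), a protein of tight junctions, to Cd59a.

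Of a list of 55 complement genes, 54 had a row, and 26 reached a mean of 50 CPM in some class, the 9 genes described here among them. The highest class of these 26 was macrophage-like for 10, epicardial-like for 8, fibroblast-like for 3, endothelial-like for 3 and pericyte-like for 2. The C1q chains C1qa, C1qb and C1qc, which were left out of the naming of classes, were highest in macrophage-like cells. So were the lectin pathway gene Fcna (204 ± 49.0 CPM) and properdin, Cfp (201 ± 36.3 CPM). The anaphylatoxin receptors C3ar1 (286 ± 62.6 CPM) and C5ar1 (295 ± 85.4 CPM) were highest in the same class. The complement receptor genes Itgam (133 ± 32.6 CPM), Itgb2 (145 ± 16.5 CPM) and Vsig4 (94.9 ± 17.9 CPM) were also highest there. Clusterin, Clu, an inhibitor of the terminal complex, was highest in epicardial-like cells at 999 ± 248 CPM, as was the collectin Colec12 at 292 ± 34.8 CPM. Vitronectin, Vtn (868 ± 207 CPM), and the collectin Colec11 (611 ± 31.1 CPM) were highest in pericyte-like cells. Cr1l, the rodent membrane regulator Crry (204 ± 10.9 CPM), and Cd93 (544 ± 47.7 CPM) were highest in endothelial-like cells. Genes of the terminal pathway did not reach 50 CPM in any class, with C6 at 27.9 ± 23.5 CPM in macrophage-like cells as the highest of them.

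Over all cells, 8 of the 9 genes had higher mean levels in Dsp_het than in control libraries by 0.80 to 1.38 on the log2 scale, and none passed the test. C3 was at 1403, 767 and 1316 normalized CPM (CPM after TMM scaling) in Dsp_het libraries and at 455, 591 and 372 normalized CPM in control libraries. All Dsp_het libraries lay above all control libraries, with a log2 fold change of 1.30 ± 0.26 (SE; adjusted p = 0.144, edgeR's quasi-likelihood test with Benjamini-Hochberg adjustment over 12969 genes). Serping1 was at 874, 376 and 557 normalized CPM in Dsp_het libraries and at 203, 280 and 260 normalized CPM in control libraries, a log2 fold change of 1.28 ± 0.30 (adjusted p = 0.176, edgeR). C2, at 67.0, 51.0 and 99.1 normalized CPM in Dsp_het libraries and at 19.1, 29.0 and 36.7 normalized CPM in control libraries, had a log2 fold change of 1.35 ± 0.30 (adjusted p = 0.167, edgeR). C4b (1.38), C1s1 (1.22), Cfb (1.03), C1ra (0.98) and Cd55 (0.80) had adjusted p-values between 0.204 and 0.309 (edgeR). Cd59a, at 82.3 ± 7.82 normalized CPM in Dsp_het and 81.3 ± 12.1 normalized CPM in control libraries, had a log2 fold change of 0.01 ± 0.14 (adjusted p = 0.981, edgeR).

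Of all genes tested over all cells, 0 passed at an adjusted p of 0.05 (percent called 0), while 1643 had an unadjusted p under 0.05, and DESeq2 called 385 (2.97%). On normalized CPM, libraries did not overlap, with Dsp_het higher, for 7 of the 9 genes and for 10.6% of all genes, the exceptions being C1ra and Cd59a. The median log2 fold change was 1.22 over the 9 genes and -0.01 over all genes tested. DESeq2 called C3 (adjusted p = 1.9e-05), C2, Serping1, C1s1, C1ra and Cfb, and over the 13 alternatives that gave a value the adjusted p of C3 ranged from 1.9e-05 to 0.467. Without Dsp_het library 2, edgeR called 170 genes (1.27%), C3 (adjusted p = 0.037), Serping1, C1s1 and Cfb among them. Of the other genes of the complement list, 23 could be tested over all cells and none passed. Of these 23, 8 were higher in Dsp_het libraries, and their median log2 fold change was -0.49. Several of the 23, the C1q chains among them, were highest in macrophage-like cells, and macrophage markers moved with them. None of 11 macrophage markers had a higher mean in Dsp_het libraries over all cells, none was at 0, and their summed level was 18.2, 459 and 1708 CPM in Dsp_het libraries and 1204, 1492 and 1165 CPM in control libraries. Macrophage-like cells numbered 2, 17 and 39 in Dsp_het libraries and 48, 33 and 65 in control libraries, and their part in the values of these genes was not tested. Among the 23, Clu had a log2 fold change of 0.92 (adjusted p = 0.288, edgeR).

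The classes with the most complement UMIs also made up larger shares of Dsp_het libraries. Epicardial-like cells made up 8.06%, 4.46% and 8.99% of the cells of Dsp_het libraries and 2.01%, 2.97% and 3.26% of those of control libraries, without overlap (two-sided exact permutation p = 0.1). They gave 13.9 ± 4.32% of the UMIs in Dsp_het and 4.99 ± 1.72% in control libraries. Fibroblast-like cells made up 21.1%, 6.60% and 8.51% of the cells of Dsp_het libraries and 4.79%, 6.06% and 5.81% of those of control libraries, again without overlap (exact permutation p = 0.1). All 12 epicardial and all 12 fibroblast markers had higher means in Dsp_het libraries over all cells, with summed epicardial levels of 928 to 1496 CPM in Dsp_het and 310 to 535 CPM in control libraries. Summed fibroblast marker levels were 7108 to 19238 CPM in Dsp_het libraries and 5438 to 7051 CPM in control libraries. The part of these shares in the difference over all cells was not tested, and in sums over all cells more cells of a class and more RNA per cell cannot be told apart.

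Within epicardial-like cells, the class with the highest C3, the log2 fold change of C3 was -0.30 ± 0.25 (adjusted p = 0.999, edgeR), and the values given above overlapped. Of the 9 genes, 4 were higher and 5 lower in Dsp_het epicardial-like cells, between -0.31 and 0.28 on the log2 scale, and 0 passed, with 0 calls among 8263 genes tested (percent called 0, and 252 genes at an unadjusted p under 0.05). None of the 9 was without overlap in either direction. Of all 8263 genes, 329 (3.98%) had no overlap with Dsp_het higher and 356 with Dsp_het lower. There edgeR gave 0 of the 9 genes an unadjusted p under 0.05, and DESeq2 called none of them. The largest of these differences was that of C1ra. It was at 247, 275 and 371 normalized CPM in Dsp_het libraries and at 364, 409 and 336 normalized CPM in control libraries. C1rb, a near copy of C1ra described below, made up 18.9%, 20.4% and 0% of the UMIs of both in these Dsp_het cells. In the control cells its share was 7.63%, 0% and 0.295%. The sum of both genes was at 295, 332 and 361 CPM in Dsp_het and at 387, 411 and 329 CPM in control libraries. The part of C1rb in the C1ra difference was not tested. C2 differed by -0.08 ± 0.16 and Serping1 by 0.01 ± 0.18 on the log2 scale.

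In fibroblast-like cells 8 of the 9 genes passed the filter on low counts and 0 passed the test (adjusted p = 1.00 for each, edgeR), with 1 call among 8402 genes (0.0119%). None of the 8 was without overlap in either direction. Of all 8402 genes, 349 (4.15%) had no overlap with Dsp_het higher and 307 with Dsp_het lower. C3 had a log2 fold change of 0.25 ± 0.21 and Serping1 of 0.21 ± 0.14. C4b, at 56.0, 96.8 and 62.2 normalized CPM in Dsp_het libraries and at 61.8, 34.0 and 7.17 normalized CPM in control libraries, had the largest, 1.10 ± 0.46, and passed without the filter on low counts (adjusted p = 0.00044, edgeR) but in no other of its 14 alternatives. Its groups overlapped through control library 1, and control library 3 was the lowest. Cfb was too low to be tested there.

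In endothelial-like cells C3 was at 16.7, 12.7 and 17.9 normalized CPM in Dsp_het libraries and at 5.68, 7.28 and 6.62 normalized CPM in control libraries. The groups did not overlap and differed by a log2 fold change of 1.28 ± 0.20 (adjusted p = 0.165, edgeR over 11279 genes, of which 0 passed, percent called 0, and 504 had an unadjusted p under 0.05). C3 passed with DESeq2 (adjusted p = 0.0024), without a filter on low counts (1.2e-06, edgeR) and without Dsp_het library 2 (0.023, edgeR), and over 14 alternatives its adjusted p ranged from 1.2e-06 to 0.585. Libraries did not overlap, with Dsp_het higher, for C3, C4b and C1s1 and for 4.22% of all genes tested in this class. C4b and C1s1 rest on 70 and 63 UMIs in all 6 libraries. Cd59a and Cd55, the genes of the 9 with the most UMIs in this class, overlapped between the groups, with log2 fold changes of 0.26 ± 0.13 and 0.50 ± 0.18 (adjusted p = 1.00 and 0.945, edgeR). Cd55 passed without the filter on low counts, at 0.49 (adjusted p = 0.035, edgeR), and over 14 alternatives its adjusted p ranged from 0.035 to 1.00.

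Markers of epicardial cells moved with C3 in endothelial-like cells. All 12 had higher means in Dsp_het endothelial-like cells, none was at 0, and their summed level was 45.4 to 55.9 CPM in Dsp_het and 32.1 to 43.1 CPM in control libraries. Wt1, a large part of that sum, overlapped between the groups. It was at 30.5, 24.5 and 27.5 CPM in Dsp_het libraries and at 29.5, 31.1 and 21.1 CPM in control libraries. Of 12 fibroblast markers, 9 had higher means in Dsp_het libraries. Their summed level overlapped, at 141 to 217 CPM in Dsp_het and 168 to 262 CPM in control libraries. Relative to epicardial-like cells of the same library, the C3 level of endothelial-like cells was 0.305%, 0.200% and 0.277% in Dsp_het libraries and 0.0577%, 0.0835% and 0.158% in control libraries. For Upk3b, a uroplakin gene that marks the epicardium, these values were 0.226%, 0.178% and 0.261% in Dsp_het libraries and 0.0246%, 0.0442% and 0.0867% in control libraries. For Msln, which encodes mesothelin, they were 0.197%, 0.126% and 0.368% in Dsp_het libraries and 0.0298%, 0.0940% and 0.104% in control libraries. For the keratin gene Krt19 they were 0.328%, 0.315% and 0.519% in Dsp_het libraries and 0.208%, 0.175% and 0.174% in control libraries. All 4 genes were lowest in library 2 among Dsp_het libraries and had no overlap between the groups, while the order of control libraries was the same for C3, Upk3b and Msln and the opposite for Krt19. For Cd59a and Cd55 the endothelial-like level was 269% to 497% and 29.3% to 74.4% of the epicardial-like level. The part of epicardial RNA in the endothelial-like C3 counts was not tested.

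In the Vwf and Nr2f2 cluster C3 was at 22.3, 15.7 and 22.9 normalized CPM in Dsp_het libraries and at 5.41, 3.65 and 5.59 normalized CPM in control libraries, from 83 UMIs. Its log2 fold change was 1.99 ± 0.40 (adjusted p = 0.069, edgeR), and 3 of 8142 genes passed there (0.0368%). C3 passed without Dsp_het library 2 (0.040, edgeR) and without the filter on low counts (0.0013, edgeR). In all, C3 passed in 3 of 13 alternatives, and its adjusted p ranged from 0.0013 to 0.596 (edgeR or DESeq2). Of the 5 genes that passed the filter there, C3 and Cd59a had no overlap on normalized CPM, with Dsp_het higher, as had 4.38% of all genes tested. Cd59a was at 223, 226 and 225 normalized CPM in Dsp_het libraries and at 218, 150 and 221 normalized CPM in control libraries, and on the CPM given above, which carry no further scaling, its groups overlapped. Epicardial markers moved with C3 there too, with 11 of 12 higher in Dsp_het libraries and Krt8 at 0. Their summed level was 46.3 to 55.4 CPM in Dsp_het and 27.7 to 40.1 CPM in control libraries. Of 12 fibroblast markers, 9 were higher in Dsp_het libraries and Cxcl14 was at 0. The summed fibroblast level overlapped, at 87.5 to 149 CPM in Dsp_het and 54.1 to 102 CPM in control libraries. None of the 9 genes passed in any of the other 8 clusters tested, in which 1 or 2 of them passed the filter on low counts. The share of all genes that passed was 0.0156%, 0.0167%, 0.0138% and 0.0133% in clusters 0, 2, 10 and 13, and 0 in clusters 3, 4, 9 and 11. In cluster 3 C3 did not overlap, with Dsp_het higher, as did 4.22% of all genes tested.

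**Figure D4:**
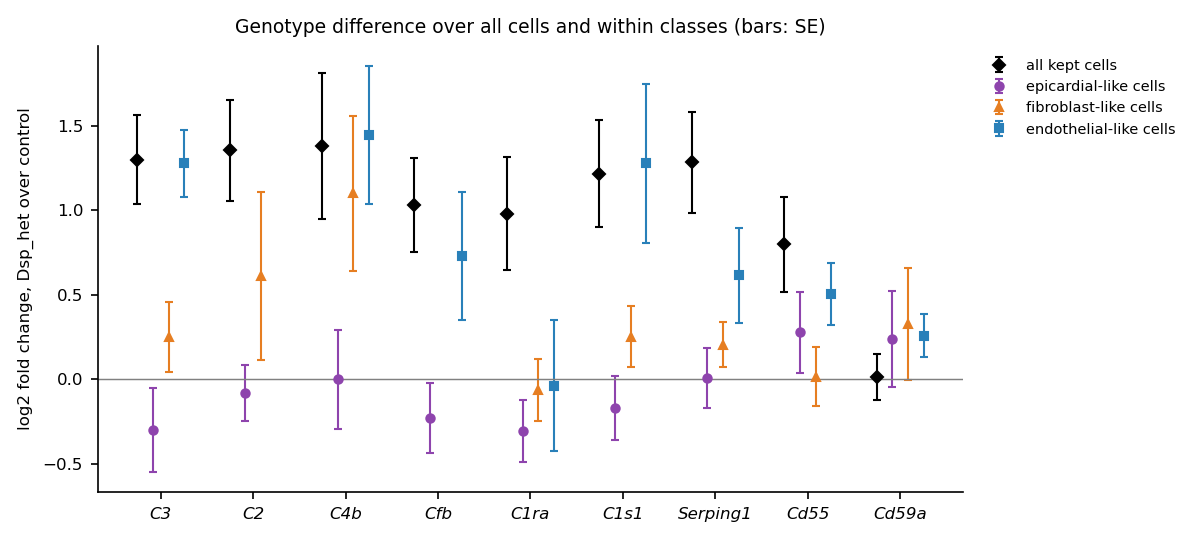
Log2 fold change of each complement gene, Dsp_het over control, over all cells (black diamonds) and within epicardial-like (circles), fibroblast-like (triangles) and endothelial-like cells (squares), with bars of 1 SE from edgeR. C3 stands at 1.30 over all cells and at -0.30 in epicardial-like cells, and no point passed the adjusted threshold.

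The difference of the genotype effect between classes was tested as an interaction. For C3 it was -1.44 ± 0.29 on the log2 scale between epicardial-like and endothelial-like cells (adjusted p = 0.261, edgeR; 1 of 11476 genes passed, 0.00871%), -0.94 ± 0.29 between fibroblast-like and endothelial-like cells (adjusted p = 1.00) and -0.50 ± 0.24 between epicardial-like and fibroblast-like cells (adjusted p = 0.998). None of the 9 genes passed in any of the 3 interactions. The first of these differences of C3 passed without control library 3, at -1.89 (adjusted p = 0.022, edgeR), and without the filter on low counts, at -1.41 (3.9e-11, edgeR), and over 13 alternatives its adjusted p ranged from 3.9e-11 to 0.810. The second passed without the filter, at -0.91 (adjusted p = 0.00062, edgeR), and in no other of its 13 alternatives.

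The share of cells with a UMI, at 1000 UMIs per cell, was compared over 27 pairs of a gene and a class. Libraries did not overlap in 3 of them, all with Dsp_het higher and an exact permutation p of 0.1, the smallest possible. Without a group difference, separation in either direction has a probability of 0.1 for each pair. The share of cells was not compared for other genes, so the count of 3 was not read as a result. Serping1 was found in 81.0 ± 2.36% of fibroblast-like cells in Dsp_het libraries and in 76.8 ± 0.98% in control libraries (SD, n = 3 each). C3 was found in 1.83 ± 0.48% of endothelial-like cells in Dsp_het and in 0.69 ± 0.28% in control libraries. The third pair was C4b in endothelial-like cells, found in 9 cells. C3 was found in 94.8 ± 3.95% of epicardial-like cells in Dsp_het libraries and in 92.7 ± 3.39% in control libraries, with overlap.

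C1ra and C1s1 each have a near copy on chromosome 6, and the copies differed between libraries in a way that did not follow the genotype. C1ra (chr6:124512405-124523443, plus strand), C1s1 (chr6:124530345-124542359, minus strand), C1rb (chr6:124570294-124581171, plus strand) and C1s2 (chr6:124624625-124636085, minus strand) lie in this order in GRCm38. In fibroblast-like and epicardial-like cells together, C1rb had 366, 128 and 0 UMIs in Dsp_het libraries 1, 2 and 3 and 25, 0 and 2 UMIs in control libraries 1, 2 and 3. C1ra had 1867, 488 and 892 UMIs in the Dsp_het libraries and 363, 399 and 737 UMIs in the control libraries, at least 363 in each library.

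As a share of the UMIs of both genes, C1rb made up 16.4% (95% Clopper-Pearson interval from 14.9% to 18.0%) in Dsp_het library 1 and 20.8% (17.6% to 24.2%) in Dsp_het library 2. It made up 6.44% (4.21% to 9.36%) in control library 1 and 0.271% in control library 3. In Dsp_het library 3 it was 0 of 892 UMIs and in control library 2 it was 0 of 399 UMIs. The upper limits of the same interval were 0.413% and 0.920%. C1s2 followed the same libraries, with 109, 17 and 0 UMIs in Dsp_het libraries and 6, 0 and 0 UMIs in control libraries. Its share was 5.19% in Dsp_het library 1, 3.27% in Dsp_het library 2 and 1.49% in control library 1. The sum of C1ra and C1rb was steadier than either, at 347, 333 and 334 CPM in Dsp_het libraries and at 293, 395 and 300 CPM in control libraries. These genes were singled out after their values had been seen, C1rb did not pass the genotype test in fibroblast-like cells (log2 fold change 3.07, adjusted p = 1.00, edgeR), and reads shared between the near copies make the level of each uncertain. By contrast Cd59b, the near copy of Cd59a, had 2 to 22 UMIs in each of the 6 libraries, 5.26% to 16.2% of the UMIs of both genes.

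**Figure D5:**
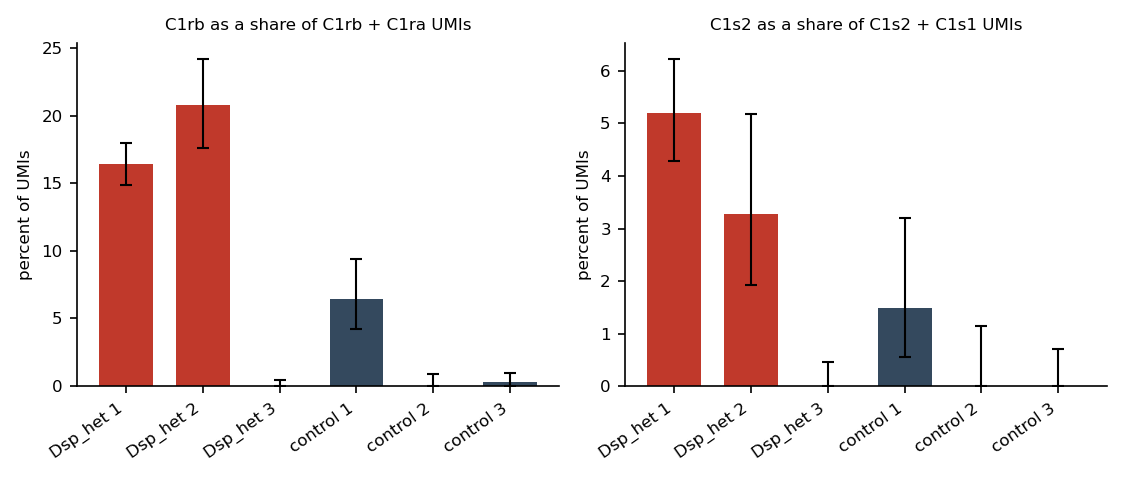
Share of C1rb among the UMIs of C1rb and C1ra (left) and of C1s2 among those of C1s2 and C1s1 (right) in fibroblast-like and epicardial-like cells of each library, in percent, with 95% Clopper-Pearson intervals (red, Dsp_het; dark blue, control). Both copies were found in Dsp_het libraries 1 and 2 and in control library 1, and C1rb made up 0 UMIs in Dsp_het library 3 and control library 2.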

How the data were processed

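Hearts were digested and EGFP-positive cells were run on the 10x Chromium system with 75-bp paired reads, per the labels' protocols. The authors deposited 1 matrix of raw UMI counts for all 6 libraries with lists of barcodes and genes. The submitters' processing notes name GRCm38 and Seurat, and no source used here names the aligner or the counting program. Barcode suffixes were matched to the sample numbers of the labels. Nothing in the labels says that samples are separate animals, though Xist differed between libraries of the same group. The p-values therefore measure the spread between these libraries, part of which may be technical.

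Barcodes with at least 500 UMIs, 200 genes and at most 20% mitochondrial UMIs were kept (16338 of 18283), and 35 called doublets (0.214%, too few for the caller to have worked) were left out. A barcode in several libraries was kept only where it had at least 0.5 of its UMIs, which left 12643 cells. Leiden clustering (scanpy 1.11.5, resolution 1.0, 30 components, 15 neighbours) used 1975 variable genes after 25 complement genes were left out, gave 23 clusters, and classes were named from marker lists. UMIs summed per library were tested with edgeR 4.0.16 (TMM, filterByExpr with a minimum count of 10, quasi-likelihood, Benjamini-Hochberg, threshold 0.05, two-sided), and an interaction had library as a block. Per class, every library needed at least 20 cells, so pericyte-like and macrophage-like cells were not tested. Tested on simulated data, it recovered for 4-fold and 2-fold changes 86% and 41% over all cells (12969 genes), 96% and 80% in endothelial-like (11279), 91% and 60% in fibroblast-like (8402), and 95% and 48% in epicardial-like cells (8263). Alternatives were copies included, RLE size factors, DESeq2 1.42.0, no filter, a replicate block, stricter cells, fewer doublets, clustering with the complement genes, and each library left out.

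The 9 genes and the lists were chosen with earlier results of these data known. All 9 are named, with other complement genes that reach 50 CPM in a class and the nearest genes by correlation. Positions are from GENCODE M21 (GRCm38), and promoters, found for 5 of the 9, from RefSeq.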

Additional observations from a re-analysis of the deposited data

How the results depend on the processing

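None of the 9 genes passed within epicardial-like cells under any alternative run. Counts of genes called moved more. Over all cells, against 0, they were 5 with copies included, 385 with DESeq2, 73 without the filter on low counts, and 0 to 170 with 1 library left out. In endothelial-like cells, against 0, they were 12 with DESeq2, 176 without the filter, 10 with the replicate block, and 0 to 11 with 1 library left out. In fibroblast-like cells, against 1, they were 71 without the filter, 4 with the block, and 0 to 5 with 1 library left out, and in epicardial-like cells, against 0, they were 43, 3, and 0 to 5 in the same order. Over the endothelial clusters, against 7, they were 4 with DESeq2, 171 without the filter, 45 with the block, and 7 to 46 with 1 library left out. For the interactions without the filter they were 45 (fibroblast-like against endothelial-like), 72 against 1 (epicardial-like against endothelial-like, with 0 by DESeq2, 0 with copies included and 0 to 5 with 1 library left out) and 31 (epicardial-like against fibroblast-like, 0 to 1 with 1 library left out). Pairs of a gene and a class whose shares did not overlap numbered 8 when thinned to 2000 UMIs, against 3, and 5 to 8 with 1 library left out. Fewer libraries separate more often without a group difference, so those 5 to 8 cannot be set against the 3. The causes of the changed counts were not tested. The counts of genes highest in epicardial-like cells (6) and in endothelial clusters 5 or 6 (7) stayed within 1.5 times under all alternatives run.

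Replicate numbers did not pair the libraries (correlations of their deviations 0.031, -0.095 and -0.086). With the replicate block, C3 passed in endothelial cluster 5 (log2 fold change 2.02, adjusted p = 0.023, edgeR), where it also passed without the filter (0.0013) and without Dsp_het library 2 (0.040), and C4b in epicardial-like cells was at -0.09. Small fold changes that were not called changed sign. Cd59a over all cells was at -0.00084 without the filter, -0.0088 with stricter cells and -0.09 to 0.12 with 1 library left out. C1ra was at -0.42 to 0.31 in endothelial-like and at -0.22 to 0.15 in fibroblast-like cells with 1 library left out. Cd55 in fibroblast-like cells was at -0.023 with high doublet scores left out and at -0.10 to 0.16 with 1 library left out. In epicardial-like cells C4b was at -0.0038 with RLE, -0.016 with DESeq2 and -0.51 to 0.23, C2 at -0.17 to 0.038 and Serping1 at -0.12 to 0.17 with 1 library left out. The share of C1rb with copies included, an alternative chosen after seeing the data, was 16.2%, 19.0% and 0.327% in Dsp_het libraries and 6.5%, 0% and 0.390% in control libraries. Without the filter, C4b also passed in the interactions of epicardial-like with endothelial-like (-1.47) and with fibroblast-like cells (-1.29), and in fibroblast-like cells (1.10), besides the passes of C3 and Cd55 given above. Depth limits C2, C1s1 and C4b in endothelial-like cells, at 32, 63 and 70 UMIs.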
